A study of Mus with 3 samples.

Results

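CD8 T cells that held transcripts of Tcf7, S1pr1 or Il7r and few transcripts of cell division or strong effector programs were examined in MC38 tumors. MC38 is a mouse colon cancer line. A barcode was taken as a member (called gated below) if it had 500 or more gene UMIs (unique molecular identifiers, each standing for 1 captured transcript), a T cell receptor (TCR) clonotype, at least 1 Cd8a UMI and 0 Cd4 UMIs. It also had to have 2 or more UMIs of Tcf7, S1pr1 and Il7r summed. Barcodes were left out if they had 5 or more UMIs of Mki67, Top2a, Birc5 and Pclaf, 5 or more of Gzmc to Gzmf, 20 or more of Ccl3, Ccl4, Xcl1 and Ifng, or 5 or more of Ifit1, Ifit3, Ifit3b, Usp18 and Cmpk2. Of 5600 barcodes with enough UMIs, 3702 had a TCR, 2046 were CD8 T cells, 1436 stayed within the limits and 686 were gated. The other 750 CD8 T cells within the limits, with under 2 UMIs of the 3 genes, are called under-gate cells and served as the closest comparison.

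The tumors came from 3 genotypes and were collected on day 16 after injection of the tumor cells. RARα-KO mice carried dLck-Cre and Rara L/L, so that Rara, which encodes the retinoic acid receptor RARα, is deleted in T cells by a Cre driven by the distal Lck promoter. RARα-TG mice carried CD2-Rara, a transgene that expresses Rara from the CD2 promoter. Both promoters act in CD4 as well as CD8 T cells, and per the study the RARα-KO line still makes a Rara transcript that is missing an exon. The study names C57BL/6 and dLck-Cre mice as WT controls, and which of them gave the WT tumor cells is not given in the sources used here, nor is the number of mice per genotype. For each genotype 30000 sorted CD45.2+ CD3+ T cells and 10000 total tumor cells were stained with 1 hashtag antibody (C0301 for WT, C0302 for RARα-KO, C0303 for RARα-TG) and pooled for 10x Genomics 5′ RNA and TCR sequencing. Each genotype is 1 sample: no value has a replicate, and genotypes were compared without a test. Intervals given with values are 95% intervals, exact Poisson for levels, exact Clopper-Pearson for shares and exact conditional binomial for ratios, and they cover counting error only. For a share of 0, the limit given is 3 counts of the total instead. Where 3 values follow each other without names, they stand in the order WT, RARα-KO, RARα-TG.

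TCF1, the product of Tcf7, keeps T cells in a state that can self-renew and give rise to effector cells. S1PR1 is the receptor by which lymphocytes leave tissues toward blood and lymph, and IL-7Rα receives the survival signal of IL-7 in naive and memory T cells. In tumors, CD8 T cells with these transcripts are seen as resting, memory-like or stem-like cells beside strongly cytotoxic and exhausted cells. Retinoic acid, the ligand of RARα, is a vitamin A product that also sets homing receptors of T cells.

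By their hashtags, 275 gated cells were WT, 332 were RARα-KO and 46 were RARα-TG, and 33 had no clear hashtag. They were 34.7% of the WT CD8 T cells (275 of 792, interval 31.4% to 38.2%), 32.0% of the RARα-KO cells (332 of 1039, 29.1% to 34.9%) and 45.5% of the RARα-TG cells (46 of 101, 35.6% to 55.8%). Most RARα-TG values thus rest on few cells. Among CD8 T cells within the limits, WT had a gated share of 51.9% (47.5% to 56.2%), RARα-KO of 43.8% (40.2% to 47.4%) and RARα-TG of 55.4% (44.1% to 66.3%). The median depth of gated cells was 4922, 4869.5 and 4609.5 UMIs in WT, RARα-KO and RARα-TG. When CD8 T cells were thinned to 1000 UMIs and a gate of 1 or more UMIs was used, with 2 RARα-TG cells left out as too shallow, WT had a share of 21.2% (18.4% to 24.2%), RARα-KO of 20.9% (18.5% to 23.5%) and RARα-TG of 32.3% (23.3% to 42.5%). The WT and RARα-KO intervals overlapped in each of these counts except among cells within the limits.

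The 3 gate genes did not contribute alike. Tcf7 (ENSMUSG00000000782, mm10 chromosome 11, 52246527 to 52283383) had 1 or more UMIs in 32.4% of gated WT cells (89 of 275, 26.9% to 38.2%), in 26.2% of RARα-KO cells (87 of 332, 21.6% to 31.3%) and in 76.1% of RARα-TG cells (35 of 46, 61.2% to 87.4%). S1pr1 (ENSMUSG00000045092, chromosome 3, 115710433 to 115715055) was found in 28.4%, 31.3% and 43.5% of them. Il7r (ENSMUSG00000003882, chromosome 15, 9506159 to 9529941) was found in 89.1% and 90.1% of WT and RARα-KO cells and in 58.7% of RARα-TG cells. Cells with Il7r as their only gate gene were over 50% of the gated cells in WT (142 cells, 51.6%, 45.6% to 57.7%) and RARα-KO (178 cells, 53.6%, 48.1% to 59.1%), and 17.4% in RARα-TG (8 cells, 7.82% to 31.4%). All 3 transcripts were found together in 9.09%, 7.83% and 21.7% of gated cells.

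**Figure D1:**
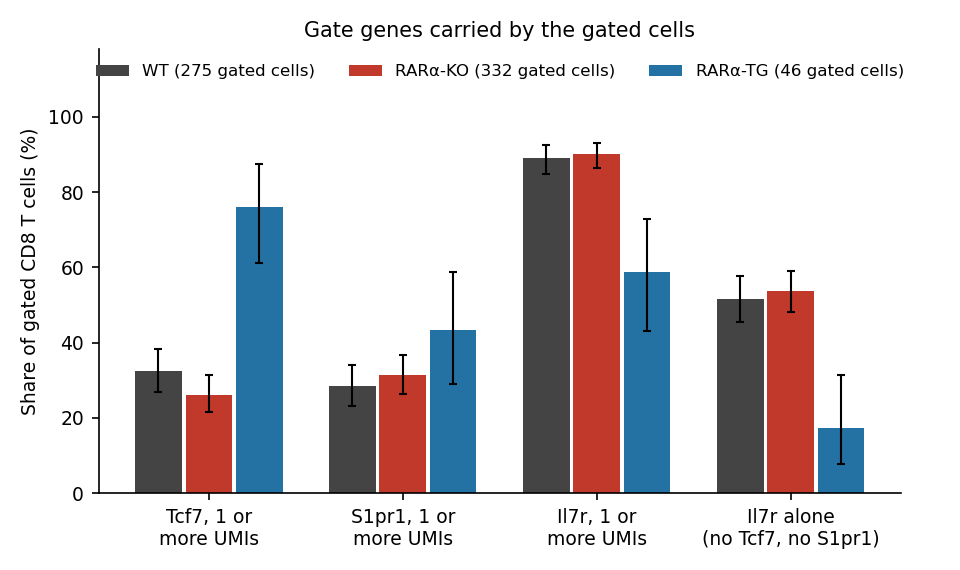
Share of gated CD8 T cells (percent, y axis) with 1 or more UMIs of Tcf7, S1pr1 or Il7r, or with Il7r as the only gate gene, for WT, RARα-KO and RARα-TG; error bars are Clopper-Pearson 95% intervals. Tcf7 was found in 76.1% of RARα-TG cells against 32.4% in WT, while Il7r alone marked 51.6% of WT and 53.6% of RARα-KO but 17.4% of RARα-TG cells.

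Transcripts of free RNA give a background in droplet data. In 269 barcodes of the same library without a TCR and with 10 or more UMIs of the myeloid genes Lyz2, Cd14, Csf1r, C1qa, C1qb and C1qc, with a median of 6859 UMIs against 5574 in the 2046 CD8 T cells, Tcf7 was found in 1.49%, S1pr1 in 2.60% and Il7r in 53.9%. The shares in all CD8 T cells were 15.2%, 14.5% and 56.0%. Barcodes without a TCR and with 10 or more UMIs of the stromal and epithelial genes Col1a1, Col3a1, Dcn, Sparc, Krt8 and Krt18 had Il7r in 1.20% of 500 cells at a median of 27503.5 UMIs and Tcf7 in 37.2%. The Il7r share thus differed between these cell types far beyond counting error, and a UMI of Il7r marked CD8 T cells no more often than myeloid cells.

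Members just inside and just outside the threshold are described by a few levels. In WT, 101 cells had a gate sum of 1 and 97 cells had a sum of 2, and the median sum of gated cells was 3 in each genotype. Ccr7, the receptor that guides T cells into lymph nodes, stood at 344 CPM (UMIs per 1000000 gene UMIs of the same cells) at a sum of 1 and at 595 CPM at a sum of 2. Gzmb, which encodes the granule protease granzyme B, stood at 2226 CPM at a sum of 0, 1140 CPM at 1 and 1583 CPM at 2. Pdcd1, which encodes the inhibitory receptor PD-1, stood at 913 and 851 CPM on both sides of the threshold. Of these genes only Pdcd1 was alike at sums of 1 and 2 in WT, where Klf2 stood at 82.5 and 133 CPM and Cd7 at 43.0 and 79.4 CPM. In RARα-KO Ccr7 stood at 164 and 189 CPM and Klf2 at 129 and 156 CPM. The 17 and 18 RARα-TG cells ran the other way, with 7 and 2 UMIs of Ccr7 and 21 and 6 UMIs of Klf2. These are descriptions of cells picked by the rule itself.

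The name memory-like was checked against the 3 other markers proposed for these cells. Gzma, a granzyme that is also made by memory cells, stood at 488 CPM in gated against 1020 CPM in under-gate WT cells, at 951 against 974 CPM in RARα-KO, and at 771 against 1076 CPM in RARα-TG. Cd7, a surface protein of early and resting T cells, stood at 136 against 68.6 CPM in WT, 81.0 against 50.8 CPM in RARα-KO and 441 against 617 CPM in RARα-TG. Cxcr3, the receptor for interferon-induced chemokines, stood at 80.1 against 46.7 CPM in WT, 112 against 62.3 CPM in RARα-KO and 81.4 against 73.4 CPM in RARα-TG. Gzma was thus lower in gated cells in WT and RARα-TG, against its role as a marker, and Cd7 was so in RARα-TG. The cells are therefore named by the gate.

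The gate genes and these markers were also compared between genotypes. Tcf7 stood at 120, 91.4 and 339 CPM, with intervals of 103 to 139, 78.1 to 106 and 268 to 422, and as a gene of the rule it is given as a description. S1pr1 stood at 86.8, 83.7 and 133 CPM and Il7r at 511, 523 and 403 CPM. The 3 gate genes had a median log2 ratio over WT of -0.05 in RARα-KO and 0.61 in RARα-TG. Cd7 was lower in RARα-KO (log2 ratio -0.74) and higher in RARα-TG (1.70, 1.35 to 2.05), and Cxcr3 was higher in RARα-KO (0.48, 0.14 to 0.81) and close to WT in RARα-TG (0.02). Gzma was higher in both, with log2 ratios of 0.96 and 0.66. Of Gzma, Cd7 and Cxcr3, 0 were past 2-fold in RARα-KO (median 0.48) and 1 was higher in RARα-TG (0.66), where past 2-fold means a log2 ratio of CPM of 1 or more in size with a counting interval that leaves out 0. Among all genes tested 2.51% of 6531 were past 2-fold higher and 2.2% lower in RARα-KO, and 3.82% of 6513 were higher and 3.88% lower in RARα-TG. Both comparisons share the WT cells.

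Cells that the limits had taken out were set beside the gated cells. Klf2, a quiescence factor that drives S1pr1, stood at 180 CPM in gated WT cells, 61.4 CPM in 192 WT cells with high Gzmc to Gzmf and 46.1 CPM in 32 WT cells with high chemokine transcripts. In RARα-KO it stood at 146 CPM in gated cells, 62.8 CPM in the Gzmc to Gzmf cells and 149 CPM in the chemokine cells, so that it did not set the last apart from gated cells. Ltb, which encodes lymphotoxin β, stood at 672, 545 and 492 CPM in the 3 populations of WT and at 1037, 479 and 609 CPM in those of RARα-KO. RARα-TG had 10 and 2 such cells. CD4 T cells that passed the same gate on the 3 genes (47 in WT) held Klf2 at 166 CPM and Cxcr6, a receptor of tissue T cells, at 343 CPM, where the gated WT CD8 T cells held Cxcr6 at 696 CPM. Gated CD8 and CD4 cells of RARα-KO held Cxcr6 at 805 and 583 CPM. The order was turned for RARα-TG (236 and 437 CPM). Ltb was chosen after its values were seen.

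Against under-gate cells, the genes of lymphoid homing and quiescence had median log2 ratios of 0.71, 0.19 and 0.28. In WT, 6 genes of this list were past 2-fold higher and 0 lower, where 1.47% of all genes tested were higher and 0.246% lower in that comparison. In RARα-KO, 2 were higher and 1 lower (background 1.35% and 0.491%), and in RARα-TG 1 was higher and 0 lower (1.44% and 1.86%). Inhibitory receptors had medians of -0.01, 0.04 and -0.48, cytotoxic granule genes of -0.11, 0.05 and -0.13, effector transcription factors of -0.17, -0.02 and -0.32 and glycolysis genes of -0.12, -0.13 and -0.19.

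Of 6068 genes tested in all 3 genotypes, 15.7% (950) were higher in gated than in under-gate cells in each genotype and 12% (730) were lower in each. By the log2 ratio alone, without a condition on the counting interval, 0.165% (10) were 2-fold or more higher in each. By the same measure, 0 were 2-fold or more lower in each. Both counts of higher genes include Tcf7, S1pr1 and Il7r, which the rule itself raised in gated cells. Sidt1, a lipid and RNA transport gene, stood at 47.4 against 16.1 CPM in WT, 32.6 against 12.0 CPM in RARα-KO and 59.99 against 24.5 CPM in RARα-TG. Its level was higher in gated cells of every genotype, with log2 ratios of 1.56 and 1.45 in WT and RARα-KO (0.85 to 2.32 and 0.78 to 2.15). The RARα-TG levels rest on 46 gated and 37 under-gate cells and are given without an interval, so a difference beyond counting error is not stated there. The 10 most raised genes were ranked by their smallest ratio over the genotypes, with the gate genes left out. Rflnb and Nsg2, both known from naive T cells, were also among them. They had 15 against 3 and 21 against 10 UMIs in WT, and 11 against 1 and 11 against 2 in RARα-KO. In RARα-TG they had 10 against 3 and 5 against 1.

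A further 6 of these 10 genes, H2-Aa, H2-Ab1, Cd74, Arg1, Basp1 and Cxcl10, are genes of antigen-presenting or myeloid cells. Of the H2-Aa UMIs in gated cells, 14 of 21, 64 of 155 and 54 of 55 were in 1 cell. Of the Cd74 UMIs, 85 of 195, 256 of 687 and 121 of 123 were in 1 cell. Whether such cells are doublets or have taken up free RNA was not tested. The 10 genes with the most consistent lower level were F2r, Fosb, Dcaf1, Memo1, Xcl1, Ing5, Brd3, B4galt5, Alkbh6 and Ube3c, with log2 ratios between -1.51 and -0.46. F2r, a thrombin receptor of effector T cells, stood at 16.7 against 33.6 CPM in WT (log2 ratio -1.01, -1.77 to -0.28) and 30.5 against 51.2 CPM in RARα-KO (-0.75, -1.24 to -0.28). In RARα-TG it stood at 34.3 against 55.0 CPM (-0.68, -2.26 to 0.86).

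Within the gate, cells with Tcf7 and cells with Il7r alone were compared after their makeup had been seen. They had a median depth of 3967 and 5787 UMIs in WT, and of 3829 and 5925.5 UMIs in RARα-KO. Since levels are CPM, depth itself does not enter a ratio, but the part of cell size in these values was not tested. The 8 RARα-TG cells with Il7r alone were too few to describe further. Of all genes tested, 4.28% were past 2-fold higher and 4.11% lower in Tcf7-positive than in Il7r-alone cells in WT, 4.89% and 3.98% in RARα-KO, and 0.617% and 3.61% in RARα-TG.

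Of 19 lymphoid homing and quiescence genes measured in WT, 11 were past 2-fold higher in Tcf7-positive cells and 1 was lower (median log2 ratio 1.14). In RARα-KO, 6 of 18 were higher and 1 lower (0.49). Klf2 stood at 427 CPM in Tcf7-positive and 49.2 CPM in Il7r-alone WT cells (log2 ratio 3.12, 2.63 to 3.63), and at 272 and 93.6 CPM in RARα-KO (1.54, 1.14 to 1.94). Of the Klf2 UMIs of gated WT cells, 51 of 269 lay in 1 cell. Cd7 stood at 324 and 43.4 CPM in WT (2.90) and at 211 and 29.7 CPM in RARα-KO (2.83). Klf3, a factor of the Klf2 family, stood at 110 and 4.57 CPM in WT and at 109 and 25.4 CPM in RARα-KO. Itga4, the α4 chain of the integrins that bind vessel walls of gut and inflamed tissue, stood at 47.7 and 9.14 CPM in WT (2.38) and at 193 and 187 CPM in RARα-KO (0.05).

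Transcripts of Gzmb, Prf1 and Lag3 were higher in Il7r-alone cells. Gzmb stood at 2237 CPM in Il7r-alone and 468 CPM in Tcf7-positive WT cells (log2 ratio of Tcf7-positive over Il7r-alone -2.26, -2.48 to -2.05), and at 8160 and 981 CPM in RARα-KO (-3.06, -3.21 to -2.91). Prf1, which encodes the pore protein perforin, stood at 304 and 59.6 CPM in WT (-2.35) and at 778 and 114 CPM in RARα-KO (-2.77). The inhibitory receptor gene Lag3 stood at 689 and 155 CPM in WT (-2.15) and at 968 and 145 CPM in RARα-KO (-2.74). Pdcd1 stood at 974 and 410 CPM in WT (-1.25), but at 375 and 323 CPM in RARα-KO (-0.22, -0.51 to 0.07). Cxcr6 stood at 916 and 308 CPM in WT (-1.57) and at 992 and 323 CPM in RARα-KO (-1.62).

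All 15 glycolysis genes measured were below 0 in this comparison in both genotypes, with 8 past 2-fold lower in WT (median -1.06) and 9 in RARα-KO (-1.08). Gapdh had log2 ratios of -1.17 and -1.24 and the hypoxia-induced gene Bnip3 of -2.58 and -2.91 in WT and RARα-KO. By contrast, Slamf6, a receptor of stem-like T cells, had ratios of 2.25 and 1.54, and the precursor exhausted list had medians of 0.64 and 0.89, with 3 genes higher in each genotype and 1 and 0 lower. Cytotoxic granule genes had medians of -0.76 (0 higher and 5 lower of 13) and -0.06 (0 and 4), inhibitory receptors of -1.03 (1 and 5 of 10) and -0.44 (0 and 3) and effector factors of -0.44 (0 and 4) and -0.66 (0 and 4). Immediate early genes had medians of 0.51 (6 and 0) and 0.82 (4 and 0). The gate therefore joined cells with unlike levels of these genes, and most RARα-TG cells held a Tcf7 UMI. Since the split used gate genes and left out cells in neither class, it cannot show whether the gated cells form separate types. The word kinds below stands for these 2 classes only.

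**Figure D2:**
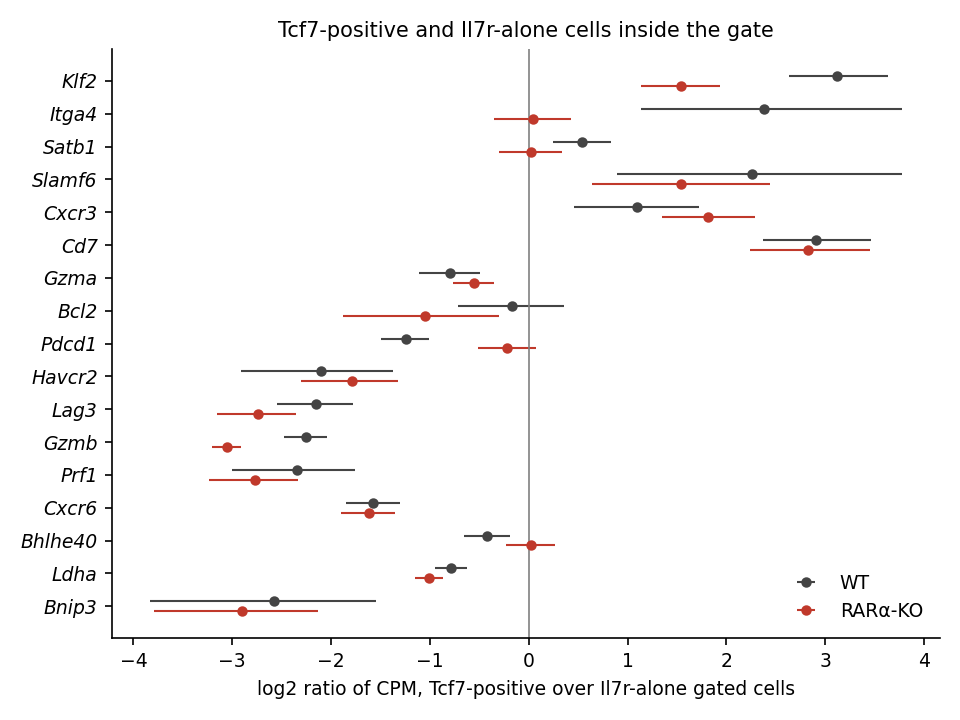
Log2 ratio of CPM, Tcf7-positive over Il7r-alone gated cells (x axis), for 17 genes in WT and RARα-KO; bars are exact conditional binomial 95% counting intervals. Klf2 and Cd7 lie to the right of 0 and Gzmb, Prf1, Lag3 and Cxcr6 to the left in both genotypes, while Itga4 lies to the right in WT (2.38) and near 0 in RARα-KO (0.05).

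Rara itself (ENSMUSG00000037992, chromosome 11, 98927800 to 98974942) stood at 102 CPM in gated WT cells (153 UMIs), 82.7 CPM in RARα-KO (152 UMIs) and 223 CPM in RARα-TG (52 UMIs). The log2 ratio over WT was -0.31 for RARα-KO (-0.64 to 0.03) and 1.13 for RARα-TG (0.64 to 1.59). Since RARα-KO T cells still make a shortened Rara transcript, which a 5′ library counts, the RARα-KO level does not check the deletion. Under-gate cells had 89.1, 85.8 and 177 CPM. Among Tcf7-positive cells the levels were 78.7, 96.6 and 203 CPM.

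The other retinoid pathway genes were low. Rarb, Rxrg, Crabp1, Cyp26a1, Cyp26b1, Aldh1a1, Aldh1a2 and Stra6, which encode further receptors, binding proteins and enzymes of retinoic acid metabolism, had 0 UMIs in gated cells of each genotype. Rarg had 21, 23 and 1 UMIs, Rxra 14, 13 and 3, Rdh11 20, 22 and 2, and Rdh10 4, 7 and 0. The 11 WT UMIs of Crabp2 lay in 1 cell, and RARα-KO cells had 12. Rxrb, the partner receptor with the most UMIs, stood at 30.7, 26.1 and 34.3 CPM in WT, RARα-KO and RARα-TG.

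Corepressors and coactivators of nuclear receptors were detected. Ncor1 stood at 212, 209 and 249 CPM, Ncoa2 at 32.7, 41.9 and 25.7 CPM, and Ncoa3 at 40.1, 34.3 and 59.99 CPM. Ncoa1 stood at 17.4, 29.4 and 55.7 CPM, with a log2 ratio of RARα-TG over WT of 1.68 (0.60 to 2.69). Dhrs3, a retinaldehyde reductase gene that retinoic acid induces in many tissues, had 3, 3 and 7 UMIs, a ratio of RARα-TG over WT of 3.90 (1.77 to 6.49). None of 7 retinoid genes measured was past 2-fold in RARα-KO over WT (median -0.18), and 3 of 8 were past 2-fold higher in RARα-TG over WT (0.41). The 3 include Rara itself, which the transgene of RARα-TG expresses. They also include Dhrs3, which reached the UMIs per cell needed for testing only in RARα-TG. Dhrs3 could thus not have been counted as lower there, and the count of 3 is no measure of the list as a whole.

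Of the transcripts of lymphoid homing and quiescence, a few differed past 2-fold between genotypes. Ccr7 stood at 465, 178 and 274 CPM, so that it was lowest in RARα-KO (-1.39, -1.58 to -1.20) and lower than WT also in RARα-TG (-0.76). Igfbp4, a gene of naive T cells, had 35, 5 and 4 UMIs (RARα-KO over WT -3.10). In RARα-KO 3 of 19 genes of this list were past 2-fold lower and 0 higher (median -0.27), and Satb1, a genome organizer of T cells, stood at 299, 287 and 326 CPM.

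In RARα-TG 5 genes of the lymphoid list were past 2-fold higher and 2 lower (median 0.03). Lef1, a partner factor of TCF1, stood at 71.4, 102 and 150 CPM in WT, RARα-KO and RARα-TG (RARα-TG over WT 1.07, 0.48 to 1.63), and Klf3 at 42.1, 52.2 and 150 CPM (1.83, 1.19 to 2.45). Rflnb (2.097) and Dapl1 (2.27), both known from naive or stem-like T cells, were also higher on few UMIs. Ms4a4c (-1.22) and Ly6c1 (-3.57) were lower, the second with 75 of its 76 WT UMIs in 1 cell. Btg1, an antiproliferative gene with the most UMIs of the list, stood at 1179, 1404 and 823 CPM.

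Since RARα-TG gated cells were mostly Tcf7-positive, the same list was compared in Tcf7-positive cells alone. There Klf2 stood at 427, 272 and 126 CPM, Ccr7 at 814, 318 and 247 CPM and Klf3 at 110, 109 and 132 CPM in WT, RARα-KO and RARα-TG. The list's median was -0.43 in RARα-KO over WT, with 0 genes past 2-fold higher and 4 lower of 19 (background 3.33% and 2.8%). In RARα-TG over WT it was -0.42, with 0 higher and 6 lower of 19 (2.55% and 3.53%). No gene of the list was thus past 2-fold higher in RARα-TG among cells with a Tcf7 UMI. In Il7r-alone cells the RARα-KO median was 0.17, with 10 of 15 genes above 0, 2 past 2-fold higher and 1 lower (3.36% and 2.57%), so that the list was not lower there. In sums over cells, a different mix of cells and a different level per cell cannot be told apart.

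**Figure D3:**
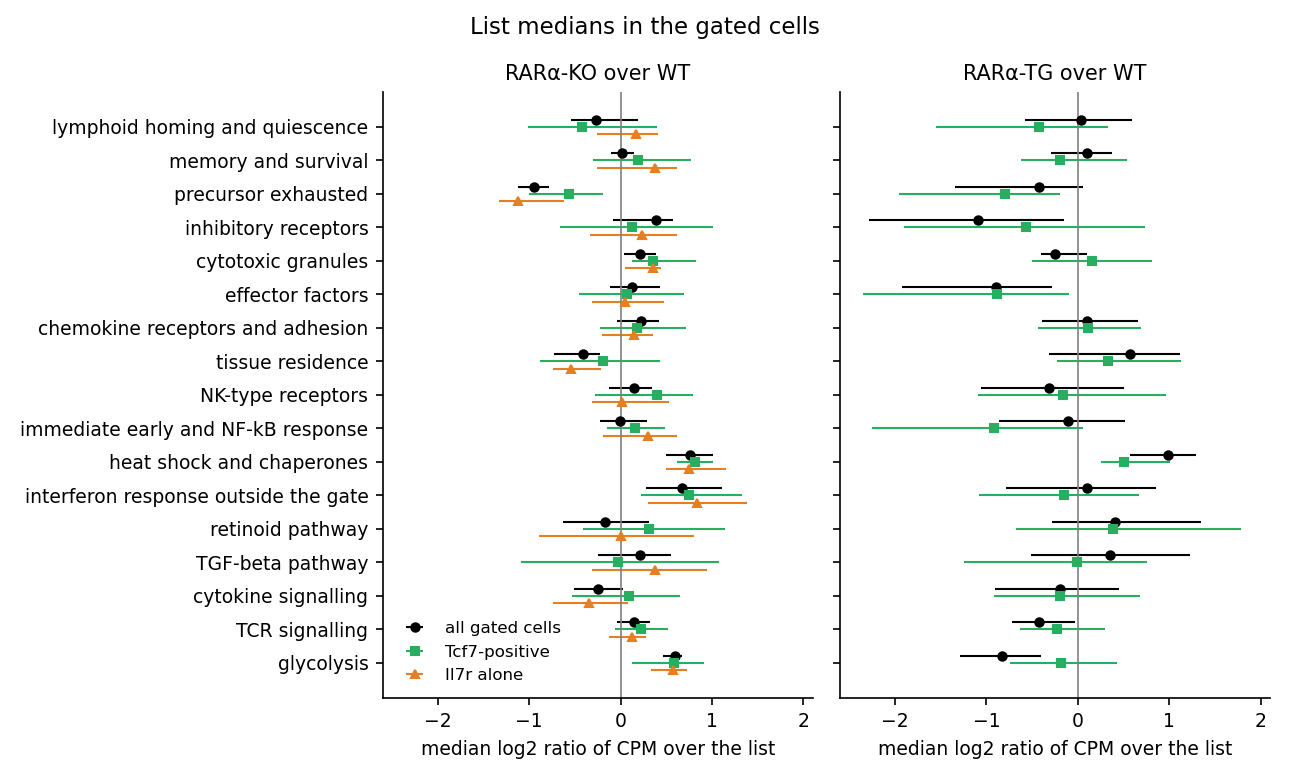
Median log2 ratio of CPM over the genes of each list (x axis), RARα-KO over WT and RARα-TG over WT, in all gated cells, in Tcf7-positive gated cells and, for RARα-KO, in cells with Il7r alone; bars run from the median of the lower to the median of the upper 95% counting bounds and are not intervals of the median. Heat shock genes lie above 0 in both comparisons (0.76 and 0.98), glycolysis genes above 0 in RARα-KO (0.60) and below 0 in RARα-TG (-0.83).

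Of the genes known from precursor exhausted T cells, 4 of 8 were past 2-fold lower in RARα-KO gated cells. Pdcd1 stood at 771, 380 and 231 CPM, a log2 ratio over WT of -1.02 for RARα-KO (-1.16 to -0.88) and of -1.74 for RARα-TG (-2.16 to -1.34). Tox, a factor that sets up exhaustion, stood at 22.03, 4.35 and 17.1 CPM (RARα-KO over WT -2.34, -3.67 to -1.20), with 33, 8 and 4 UMIs. Xcl1, a chemokine gene whose level the gate also limits, stood at 92.8, 18.5 and 47.1 CPM (-2.33), and Ikzf2, which encodes Helios, at 137, 37.0 and 85.7 CPM (-1.89). In RARα-KO 0 were past 2-fold higher (median -0.95), and in RARα-TG 0 were higher and 1 lower (-0.42). The list's other genes with many UMIs, Il21r and Nr4a2, stood at 360, 195 and 291 CPM and at 180, 135 and 129 CPM. Slamf6 stood at 19.4, 29.9 and 42.9 CPM.

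Both kinds of gated cells differed between WT and RARα-KO in this list. Its median was -0.57 in Tcf7-positive cells (0 higher and 3 lower of 8) and -1.12 in Il7r-alone cells (1 higher and 4 lower of 8). Among Il7r-alone cells 3.36% of all genes were past 2-fold higher and 2.57% lower. Pdcd1 itself had a log2 ratio of -0.35 in Tcf7-positive and -1.38 in Il7r-alone cells. Whether the 2 ratios differ beyond sampling of mice was not tested.

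The inhibitory receptors of the gated cells did not follow PD-1 alone. Lag3 stood at 473, 684 and 34.3 CPM (RARα-KO over WT 0.53, RARα-TG over WT -3.79, -5.00 to -2.80), and its 8 RARα-TG UMIs were found in 2 cells. Havcr2, which encodes TIM-3, stood at 128, 264 and 42.9 CPM (RARα-KO over WT 1.04, 0.80 to 1.29, RARα-TG over WT -1.58, -2.66 to -0.67). Tigit stood at 362, 448 and 180 CPM, Ctla4 at 198, 333 and 150 CPM, and Entpd1, which encodes the ectoenzyme CD39, had a ratio of -2.25 in RARα-TG on 2 UMIs. In RARα-KO the list had 1 gene past 2-fold higher and 2 lower of 10 (median 0.38). All 10 were below 0 in RARα-TG, with 0 past 2-fold higher and 5 lower (-1.09). Among Tcf7-positive cells the RARα-TG median was -0.56, with 1 of 9 past 2-fold lower, and Lag3 stood at 155 and 145 CPM in WT and RARα-KO and had 0 UMIs in RARα-TG.

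Among the granule genes Gzmb, Gzmk and Prf1 were past 2-fold higher in RARα-KO gated cells. Gzmb stood at 1589 CPM in WT (2380 UMIs), 5851 CPM in RARα-KO (10760 UMIs) and 1525 CPM in RARα-TG (356 UMIs), so that RARα-KO exceeded WT by 1.88 on the log2 scale (1.82 to 1.95) and RARα-TG did not differ from WT beyond counting error (-0.06). Gzmk, a granzyme of memory and early effector cells, stood at 101, 514 and 163 CPM (RARα-KO 2.34, 2.09 to 2.60, RARα-TG 0.68) and was found in 24.7%, 68.4% and 37.0% of gated cells. Prf1 stood at 216, 535 and 98.6 CPM (1.31, 1.12 to 1.49, and -1.13, -1.81 to -0.52). Gzma, at 488, 951 and 771 CPM, was 0.96 higher in RARα-KO (0.84 to 1.09) and 0.66 higher in RARα-TG (0.42 to 0.90), with 157, 404 and 36 of its UMIs in 1 cell.

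Of 13 granule genes, 3 were past 2-fold higher and 0 lower in RARα-KO (median 0.21), and 0 higher and 2 lower in RARα-TG (-0.25), the second being Serpinb6b (-1.12), an inhibitor of proteases. Nkg7 and Srgn, the granule genes with the most UMIs beside the granzymes, stood at 2894, 3920 and 1924 CPM and at 2098, 2629 and 1770 CPM. The RARα-KO difference in Gzmb and Gzmk was present in both kinds of gated cells: Gzmb was 1.07 higher in Tcf7-positive cells and 1.87 higher in Il7r-alone cells. Gzmk stood at 83.5 against 547 CPM and at 98.3 against 481 CPM in WT against RARα-KO in the 2 kinds. Under-gate cells held Gzmb at 1784, 5036 and 1877 CPM, so the difference between genotypes was also found outside the gate. The list limited by the gate itself had 2 genes higher, Ccl4 (1.79) and Ccl3 (1.68), and 1 lower, Xcl1, of 6 in RARα-KO (median 0.03), and 0 of 6 past 2-fold in RARα-TG (-0.28).

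**Figure D4:**
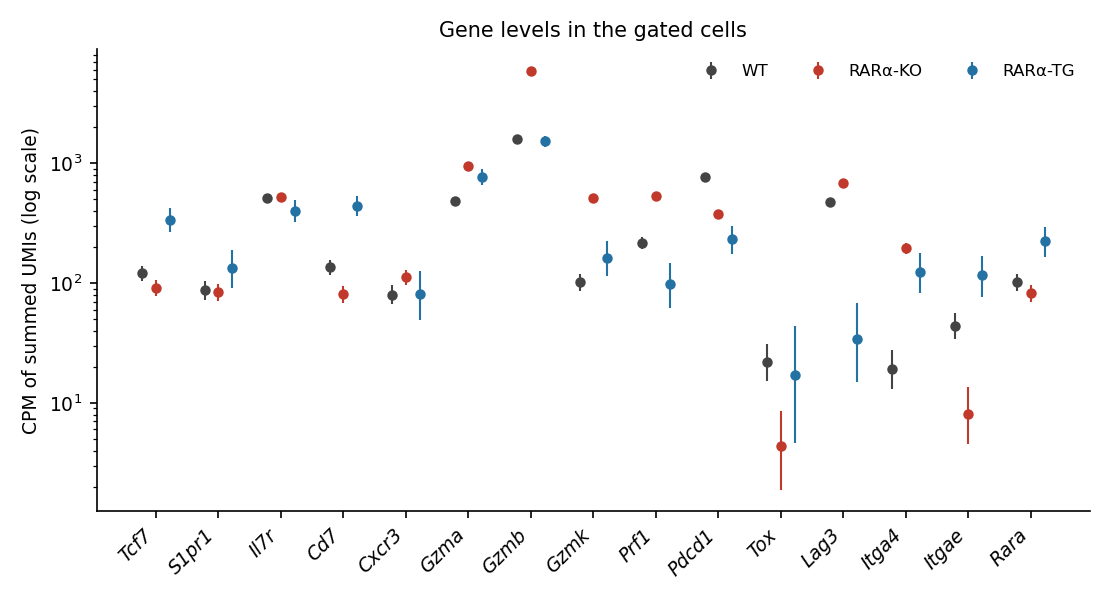
CPM (log scale, y axis) of 15 genes in gated CD8 T cells of WT, RARα-KO and RARα-TG; bars are exact Poisson 95% intervals. Gzmb, Gzmk, Prf1 and Itga4 are highest in RARα-KO, Tcf7, Cd7, Itgae and Rara highest in RARα-TG, and Pdcd1 and Tox highest in WT.

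Several effector transcription factors were lower in RARα-TG gated cells. Irf8 had 348, 261 and 2 UMIs in WT, RARα-KO and RARα-TG (RARα-TG over WT -4.76, -7.81 to -2.90). Id2, which supports effector cells, stood at 379, 586 and 124 CPM (-1.61, -2.20 to -1.07) and Bhlhe40 at 599, 468 and 210 CPM (-1.51, -1.96 to -1.10). Tbx21, which encodes T-bet, had 161 UMIs in WT and 9 in RARα-TG (-1.48), Batf 181 and 10 (-1.50) and Rbpj 235 and 13 (-1.49). In RARα-TG 6 of 14 factors were past 2-fold lower and 0 higher (median -0.89), and among Tcf7-positive cells alone 5 were lower and 0 higher (-0.88). In RARα-KO 1 of 14 was past 2-fold, Prdm1, which encodes the effector factor Blimp-1, at 10.7, 43.5 and 17.1 CPM (2.03, 1.24 to 2.90, median of the list 0.12). Jund stood at 1625, 1628 and 857 CPM.

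Few memory and survival genes were past 2-fold, but not all levels were close. Ltb, also of this list, stood at 672, 1037 and 416 CPM. Il2rb and Il2rg, subunits of the IL-2 and IL-15 receptors, stood at 618, 625 and 583 CPM and at 965, 853 and 917 CPM. Ly6c2, a surface protein of memory and effector cells whose reads may be split with its near-identical copy Ly6c1, stood at 1402, 1724 and 1881 CPM and the adhesion gene Emb at 754, 574 and 840 CPM. Eomes, a factor of memory CD8 T cells, stood at 16.7, 37.5 and 25.7 CPM (RARα-KO over WT 1.17, 0.49 to 1.89). In RARα-KO 1 of 17 genes was past 2-fold higher and 0 lower (median 0.02). In RARα-TG 1 was higher, the cytokine signal inhibitor Socs3 (1.20), and 1 lower, the kinase gene Pim1 (-1.03), with a median of 0.10. The survival gene Bcl2 stood at 112, 71.2 and 141 CPM.

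Of the genes for homing and adhesion, Itga4 differed most. It stood at 19.4 CPM in WT (29 UMIs), 195 CPM in RARα-KO (358 UMIs) and 124 CPM in RARα-TG (29 UMIs), with log2 ratios over WT of 3.33 (2.78 to 3.93) and 2.68 (1.89 to 3.48). It was found in 8%, 40.7% and 34.8% of gated cells. Both genotypes were thus above WT, and under-gate cells had 30.7, 178 and 85.6 CPM. Ccr2, a receptor for inflammatory chemokines, stood at 58.1, 155 and 107 CPM (RARα-KO over WT 1.42, 1.06 to 1.78), and Ccr8 at 131, 33.2 and 51.4 CPM (-1.98 in RARα-KO, -1.35 in RARα-TG).

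Cxcr6 stood at 696, 805 and 236 CPM (RARα-TG over WT -1.56, -1.98 to -1.17). Cxcr4, the receptor of CXCL12 (1.28), and Itgb1, the β1 integrin chain, at 272, 245 and 600 CPM (1.14, 0.85 to 1.42) were higher in RARα-TG. Cx3cr1 had 63, 44 and 0 UMIs, which places RARα-TG at least 1.71 lower on the log2 scale with the floor of 3 UMIs. In RARα-KO 2 of 16 genes of this list were past 2-fold higher and 1 lower (median 0.23), and in RARα-TG 3 were higher and 3 lower (0.10). The adhesion genes with many UMIs, Cd2 and Selplg, stood at 520, 519 and 574 CPM and at 640, 674 and 596 CPM.

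Itgae, which encodes the CD103 chain that holds T cells in epithelia, stood at 44.1, 8.16 and 116 CPM in WT, RARα-KO and RARα-TG (-2.43, -3.35 to -1.61, and 1.39, 0.69 to 2.06). Its UMIs numbered 66, 15 and 27. Among Tcf7-positive cells RARα-TG exceeded WT by 2.41 (1.28 to 3.64). Of 10 tissue residence genes, 0 were past 2-fold higher and 3 lower in RARα-KO (median -0.41), with Rgs2 (-1.04) and Ldlrad4 (-1.06) beside Itgae, and 2 were higher and 0 lower in RARα-TG (0.57), Itgae and Ldlrad4 (1.84). Vps37b stood at 640, 495 and 1063 CPM, Litaf at 465, 280 and 373 CPM, Hopx at 459, 336 and 236 CPM and Rgs1, a brake on chemokine receptors, at 215, 326 and 364 CPM.

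Glycolysis genes moved apart between the genotypes. All 15 measured genes were above 0 in RARα-KO over WT, with 2 past 2-fold (median 0.60), and 14 of 15 were below 0 in RARα-TG over WT, with 6 past 2-fold lower and 0 higher (-0.83). Gapdh stood at 6423, 9714 and 3912 CPM, Aldoa at 2102, 2647 and 1050 CPM, Eno1 at 1776, 2784 and 968 CPM and Ldha at 1429, 2081 and 1110 CPM. Slc2a1, the glucose transporter GLUT1, was 1.33 higher in RARα-KO, and Bnip3 stood at 88.1, 190 and 8.57 CPM (1.11 and -3.36). The other genes past 2-fold lower in RARα-TG were Pfkp (-1.10), Aldoa (-1.002), Tpi1 (-1.14), Pgk1 (-1.17) and Slc16a3 (-1.42).

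The RARα-KO median was 0.58 in Tcf7-positive and 0.57 in Il7r-alone cells. In RARα-TG the median within Tcf7-positive cells was -0.19, with 0 of 15 genes past 2-fold in either direction. Most of the RARα-TG difference in all gated cells was thus not found among cells matched for a Tcf7 UMI, while the RARα-KO difference was found in each kind.

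Several heat shock genes were higher in both genotypes than in WT. Hspa1a, an inducible chaperone gene, stood at 11.4, 199 and 163 CPM (RARα-KO over WT 4.13, 3.43 to 4.93, RARα-TG over WT 3.84, 2.98 to 4.76), with 128 of 366 RARα-KO UMIs in 1 cell. Hspa1b stood at 42.7, 274 and 206 CPM (2.68 and 2.27), and Hsph1 at 136, 367 and 381 CPM (1.43 and 1.49). Of 12 genes, 4 were past 2-fold higher and 0 lower in RARα-KO (median 0.76), and 4 of 11 in RARα-TG (0.98), among them Hsp90aa1 (1.04). Hspb1 had 1, 144 and 1 UMIs, and 133 of the 144 lay in 1 cell. Hspa1a and Hspa1b are near-identical copies, between which reads may be split. The constitutive chaperone genes Hspa8 and Hsp90ab1 stood at 2813, 3344 and 3861 CPM and at 3024, 3511 and 3977 CPM. These genes also respond to handling of tissue, and since each genotype was 1 sample, handling and genotype cannot be told apart.

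Immediate early genes had medians near 0, at -0.01 in RARα-KO (5 past 2-fold higher and 0 lower of 18) and -0.10 in RARα-TG (0 and 2). Jun had 32, 157 and 2 UMIs (RARα-KO over WT 1.999, 1.44 to 2.60), of which 84 of the 157 lay in 1 cell. The other 4 were Egr1 (1.31), Ier3 (1.56), Zfp36 (1.05) and Fos (1.23). Without the cells that held markers of other cell types (described with those markers) they stood at 0.68, 0.95, 0.13 and -1.09, and Jun at 1.84. Lower in RARα-TG were Nfkbiz (-1.48) and Cd83 (-2.71). Junb stood at 702, 562 and 651 CPM and Dusp2 at 604, 585 and 390 CPM. Among Tcf7-positive cells 6 of 18 were past 2-fold lower in RARα-TG and 0 higher (median -0.92).

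Interferon response genes outside the gate were higher in RARα-KO: 20 of 21 were above 0, 4 were past 2-fold higher and 0 lower (median 0.67). Zbp1, a nucleic acid sensor, stood at 60.1, 157 and 90.0 CPM (1.39, 1.04 to 1.74), Isg15 at 78.8, 177 and 167 CPM (1.17 in RARα-KO and 1.08 in RARα-TG), Ifi209 was 1.40 and Gbp2 1.03 higher in RARα-KO. Isg15 in RARα-KO stood at 0.53 without the cells with markers of other types. Ly6a, which encodes Sca-1, stood at 854, 1606 and 639 CPM (0.91 in RARα-KO). In RARα-TG 1 of 21 was past 2-fold higher and 0 lower (0.10). The RARα-KO median was 0.75 in Tcf7-positive cells (6 past 2-fold higher of 21) and 0.83 in Il7r-alone cells (9 past 2-fold higher).

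Signalling lists showed few differences. TGF-β pathway genes had medians of 0.21 in RARα-KO (0 of 10 past 2-fold) and 0.35 in RARα-TG (2 higher and 0 lower), the 2 being Tgfbr1 (1.90, 12 UMIs in WT and 7 in RARα-TG) and Smad3 (1.51, 18 and 8 UMIs). Tgfb1 stood at 796, 490 and 420 CPM, Smad7 at 177, 226 and 266 CPM, Skil at 185, 181 and 167 CPM and Tgfbr2 at 163, 171 and 197 CPM. Cytokine signalling genes had medians of -0.25 (1 higher and 0 lower of 18, Il12rb1 at 1.55) and -0.19 (0 higher and 1 lower of 17, Il10ra at -3.02 on 1 UMI). Ifngr1 stood at 1264, 1068 and 1371 CPM, Stat3 at 732, 509 and 480 CPM, and Jak1 at 417, 458 and 463 CPM.

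TCR signalling genes had medians of 0.14 in RARα-KO (0 of 18 past 2-fold) and -0.42 in RARα-TG (0 higher and 1 lower), where the kinase gene Zap70 stood at 244, 267 and 111 CPM (-1.13, -1.76 to -0.55). No gene of the CD3 and CD8 chains was past 2-fold, but those with the most UMIs were lowest in RARα-TG. Cd3e stood at 1300, 1456 and 934 CPM, Cd3d at 1310, 1614 and 1148 CPM, Cd8a at 1078, 1052 and 801 CPM and Cd8b1 at 916, 928 and 866 CPM. Proliferation genes, limited in part by the gate, had medians of -0.18 (0 of 10 past 2-fold) and -0.08 (1 higher, Mcm5 at 1.10, and 0 lower).

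Tmem176a and Tmem176b, membrane protein genes known from type 17 and innate-like T cells and from dendritic cells, stood out in RARα-TG. Tmem176a had 1, 3 and 12 UMIs (RARα-TG over WT 6.27, 3.51 to 11.69) and Tmem176b 3, 3 and 16 (5.10, 3.29 to 7.52). The 12 lay in 8 cells and the 16 in 7 cells, and all of them were in Tcf7-positive cells. Maf, a factor of the same cells, had 6, 40 and 5 UMIs (2.44 in RARα-KO and 2.42 in RARα-TG). Of 4 genes of this list measured in RARα-TG, 3 were past 2-fold higher (median 3.76), and Rora stood at 306, 204 and 154 CPM. Tmem176a and Tmem176b reached the UMIs per cell needed for testing only in RARα-TG. They could not have been counted as lower there, so the count and the median say nothing about the list as a whole. No gated cell with a recorded α chain carried an invariant TCR α chain of NKT or MAIT cells. Such a chain was recorded in 241 of 275, 272 of 332 and 38 of 46 gated cells, so the others could not show one. Of the invariant T cell markers 1 gene was measured and was not past 2-fold. The TCR genes of that list were left out of testing, so the list says little.

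NK-type receptors, which activated CD8 T cells also make, had medians of 0.15 in RARα-KO (2 past 2-fold higher and 3 lower of 12) and -0.31 in RARα-TG (3 and 1). Klrd1, the CD94 chain, stood at 780, 1164 and 437 CPM, Klrc1, the NKG2A chain, at 776, 841 and 480 CPM and Klrk1, which encodes NKG2D, at 402, 402 and 433 CPM. Klra7, one of a family of near-identical genes whose reads may be split, had 21, 1 and 9 UMIs (-4.69 and 1.46). Klri2 had 41, 15 and 0 UMIs (-1.75 in RARα-KO and at least 1.09 lower in RARα-TG), and Crtam was 1.10 lower on the log2 scale in RARα-KO (-1.10). Tyrobp and Fcer1g, adaptor genes shared with myeloid cells, were 2.98 and 2.35 higher in RARα-KO and 3.48 and 1.93 higher in RARα-TG. Without the cells with markers of other types they stood at -2.07 and -2.09 in RARα-KO and at 2.48 and 1.02 in RARα-TG.

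Cells with many UMIs of other cell types' markers were few, while single UMIs of such markers were more widely spread. Summed over 26 defining markers of myeloid, B, MC38 or stromal and erythroid cells, gated cells had 259, 1019 and 186 UMIs (173, 554 and 797 CPM), of which 154, 309 and 181 lay in 1 cell of each. Cells with 1 or more of these UMIs numbered 23, 55 and 6, and cells with 5 or more 3, 8 and 1. Myeloid markers summed to 62.1, 214 and 133 CPM (S100a8 and S100a9 at 0 in each genotype), with 3 higher of 3 measured in RARα-KO (median 2.19) and 1 of 3 in RARα-TG (0.73). Dendritic cell markers summed to 646, 790 and 1500 CPM (Flt3, Clec9a and Siglech at 0 in each), with 4 higher and 1 lower of 5 in RARα-KO (2.59) and 4 higher in RARα-TG (4.07). In RARα-TG 279 of the 350 UMIs of this list lay in 1 cell, and 142, 94 and 19 gated cells had 1 or more of them.

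MC38 or stromal markers summed to 144, 236 and 59.99 CPM (Krt8, Krt19 and Mgp at 0 in each), with 3 higher and 1 lower of 5 in RARα-KO (1.27) and 1 and 1 of 3 in RARα-TG (-0.05). NK cell markers summed to 524, 1015 and 848 CPM in 90, 163 and 22 cells, with Ncr1 and Klra8 at 0 in each (2 higher and 1 lower of 4, median 1.06, and 1 higher of 3, 0.66). CD4 T cell markers summed to 571, 628 and 360 CPM with Cd4 at 0 by the rule (0 higher and 1 lower of 3 in both, medians 0.40 and -0.40, the lower gene being Tnfrsf4). B cell markers summed to 30.04, 12.0 and 55.7 CPM with 1 gene measured, Ighm (-1.47 and 1.51), and erythroid and platelet markers to 2.67, 3.26 and 8.57 CPM with 0 measured. The part of doublets and free RNA in these values was not tested, and the marker-free values above are given where a gene turned.

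The 10 genes at each end of the genotype comparisons were looked up. At the upper end of RARα-KO over WT, Cxcl2, Cd14, Clec4n, Il1b, Clec4d and Il1rn are myeloid genes, of which the gated RARα-KO cells held between 40 and 179 UMIs in 6 to 9 cells. None of them kept a ratio without the cells with markers of other types. Hspb1 came from 1 cell. Gm42031 (2, 140 and 0 UMIs, 82 RARα-KO cells), Gm4316 (1, 50 and 0 UMIs, 43 cells) and Gm43305 (0, 95 and 0 UMIs, 71 cells) were spread over many cells.

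Gm42031 and Gm43305, with AA465934 (0, 64 and 0 UMIs), Rpl29 (3327, 350 and 3424 CPM) and Trim12a (50, 1 and 8 UMIs), belong to a list of transcripts that also differed between myeloid cells of the same tumors, which do not express the Cre. In myeloid cells Rpl29 stood at 1499, 381 and 1817 CPM, Gm42031 had 1, 243 and 0 UMIs and Trim12a 15, 1 and 2. This list had 3 genes past 2-fold higher and 2 lower of 5 in RARα-KO (median 4.12).

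At the lower end of RARα-KO over WT, Slurp1 (168 UMIs) and Sox9 (48 UMIs) lay in 1 WT cell each. Trim12a and Klra7 are described above. Sema6d (39 and 2 UMIs), Haao (14 and 1), Gm20186 (27 and 2) and Nrn1 (49 and 6) were spread over 13 to 30 WT cells. Ccl1, a chemokine gene, had 156 UMIs in 14 WT cells, 84 of them in 1 cell, and 9 in RARα-KO. Penk, which encodes the opioid precursor proenkephalin, had 62 UMIs in 5 WT cells and 5 in RARα-KO.

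In RARα-TG over WT, Cxcl2, Cd14, Fn1, H2-Eb1 and Sirpb1c, 5 of the 10 genes at the upper end, lay in 1 RARα-TG cell each. Klra5, an NK-type receptor gene, had 3, 32 and 17 UMIs (5.18) with the RARα-TG UMIs in 6 cells, Igsf23 had 2, 5 and 9 (4.85, in 8 cells), Vegfa 2, 26 and 9 (4.85, in 2 cells), and Tmem176a and Tmem176b are given above. At the lower end, Il1r2, a decoy receptor for IL-1, had 178, 80 and 1 UMIs (-4.79), Nrgn 275, 35 and 3 (-3.84), Myo10 93, 114 and 1 (-3.86), Jdp2 82, 56 and 1 (-3.68) and Lamp2 78, 89 and 1 (-3.60), beside Irf8 and Lag3. Nrgn was also 3.27 lower on the log2 scale in RARα-KO (-3.27, -3.82 to -2.76). Sparc, Ccl2 and Ly6c1 lay almost wholly in 1 WT cell, with 137 of 137, 76 of 77 and 75 of 76 UMIs.

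The TCR was not used by the rule except as a mark of a T cell. Gated cells of WT fell into 122 clonotypes, those of RARα-KO into 109 and those of RARα-TG into 44. Clonotypes of 1 cell in the genotype held 23.3% of gated WT cells (64 of 275, 18.4% to 28.7%), 12.3% of RARα-KO cells (41 of 332, 9.01% to 16.4%) and 82.6% of RARα-TG cells (38 of 46, 68.6% to 92.2%). The under-gate shares were 16.9%, 8.45% and 89.2%. The difference of gated minus under-gate cells was 6.41, 3.90 and -6.58 percentage points, with p = 1 in the exact two-sided sign-flip permutation test over the 3 genotypes, whose smallest p is 0.25.

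Clonotypes of 10 or more cells held 53.5% of gated WT cells, 66.6% of those of RARα-KO and 0 of 46 in RARα-TG, which allows a share of up to 6.52% by the limit of 3 counts. Under-gate cells had 60%, 72.8% and 0%, a difference of -6.55, -6.20 and 0 points (exact permutation p = 0.5). The gated share in large clones was thus lower in WT and RARα-KO, with counting intervals that overlapped those of under-gate cells. Since the RARα-TG difference was 0, this permutation test cannot give a smaller p than 0.5 here. Counted within gated cells alone, 30.5%, 19.3% and 93.5% had no other gated cell of their clonotype. Drawn down to 46 cells, these shares would be expected at 57.8%, 47.9% and 93.5%. RARα-TG thus still had the highest share at equal numbers of cells.

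The kinds of gated cells differed in clone size. In WT 48.3% of Tcf7-positive cells (37.6% to 59.2%) and 7.04% of Il7r-alone cells were in clonotypes of 1 cell, and in RARα-KO 27.6% (18.5% to 38.2%) and 6.74%. Among Tcf7-positive RARα-TG cells it was 77.1%. Clonotypes of 10 or more cells still held 34.8% of Tcf7-positive WT cells and 49.4% of those of RARα-KO.

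Most clones lay on both sides of the gate. Of 68 WT clonotypes with 2 or more CD8 T cells, 54 held gated and other cells, 3 held gated cells alone and 11 held none. In RARα-KO these numbers were 62, 3 and 12 of 77. Among clonotypes of 10 or more CD8 T cells all 19 of WT and 22 of 23 of RARα-KO were mixed, with 12% to 60% gated in WT (median 28.6%) and 0% to 65% in RARα-KO (median 31.2%). Since 34.7% of WT and 32.0% of RARα-KO CD8 T cells were gated, most clones of this size would be mixed by sampling alone. The mixing is thus a description, and its size against such sampling was not tested. The lowest and highest WT clones were clonotype 17 with 3 of 25 cells gated and clonotype 33 with 9 of 15. Of clonotypes with 5 or more gated cells, 10 of 12 in WT and 13 of 19 in RARα-KO held both Tcf7-positive and Il7r-alone cells. Of all 271 gated clonotypes, 4 were found in more than 1 genotype.

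The gene segments also differed between genotypes. TRBV16, a β chain V segment, was found in 13.8% of gated WT cells (37 of 269, 9.87% to 18.5%), 59.9% of RARα-KO cells (196 of 327, 54.4% to 65.3%) and 6.52% of RARα-TG cells (3 of 46, 1.37% to 17.9%). By clonotypes the shares were 14.9%, 34.3% and 6.82%. Under-gate cells had 7.47%, 59.3% and 2.70%, so that gated cells were higher by 6.29, 0.65 and 3.82 points (exact permutation p = 0.25, the smallest possible). TRBV31 was found in 21.2% of gated WT cells (57 of 269) and 0.612% of RARα-KO cells (2 of 327). By clonotypes it was found in 8 of 121 in WT (6.61%, 2.90% to 12.6%). In RARα-KO it was found in 2 of 105 clonotypes (1.90%, 0.232% to 6.71%), so that these intervals overlapped.

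TRAJ22, an α chain J segment, was found in 0 of 241 gated WT cells (a share of up to 1.24% by the limit of 3 counts), 142 of 272 RARα-KO cells (52.2%, 46.1% to 58.3%) and 4 of 38 RARα-TG cells (10.5%, 2.94% to 24.8%). The under-gate RARα-KO share was 52.1% (182 of 349), and gated minus under-gate differences had an exact permutation p of 0.5. By clonotypes it was 32 of 92 in gated RARα-KO cells (34.8%). The α chain of these cells was joined to the TRBV16 β chain: TRAJ22 was found in 133 of 157 gated RARα-KO cells with TRBV16 and in 9 of 110 with another V segment, or in 24 of 31 against 8 of 57 clonotypes.

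**Figure D5:**
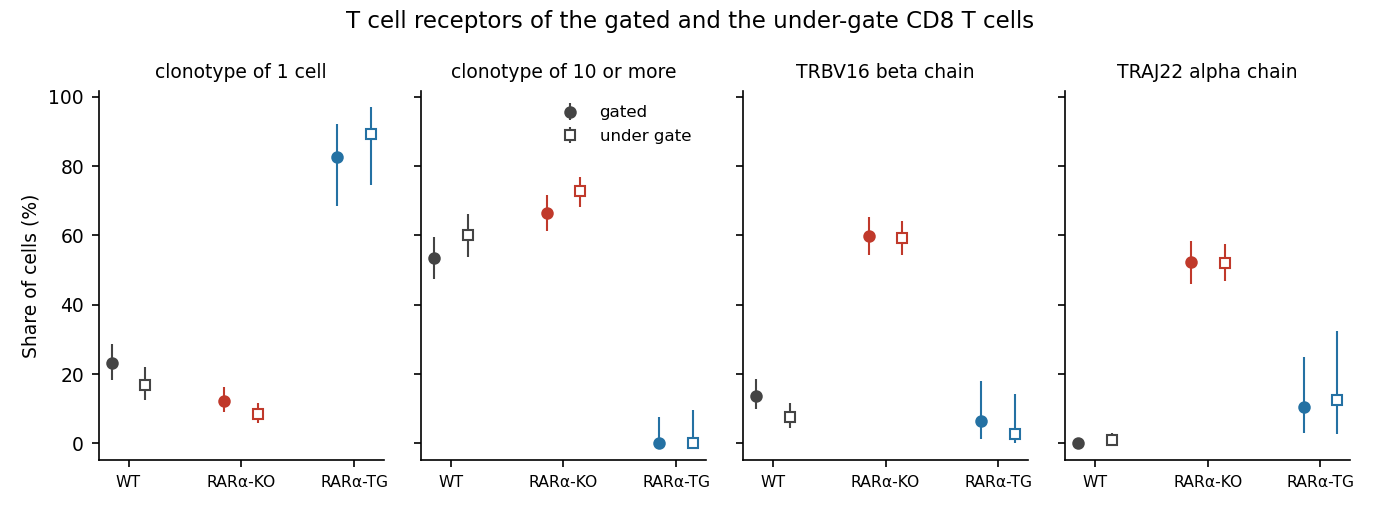
Share of cells (percent) in clonotypes of 1 cell, in clonotypes of 10 or more cells, with TRBV16 and with TRAJ22, for gated (filled circles) and under-gate (open squares) CD8 T cells of each genotype; bars are Clopper-Pearson 95% intervals. Gated and under-gate cells of a genotype lie close together, and RARα-KO stands apart in TRBV16 (59.9% of gated cells) and TRAJ22 (52.2%).

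The sequences of the third complementarity-determining regions (CDR3), made at the V-J or V-D-J joint where antigen is contacted, are set out for these chains. The 142 TRAJ22 cells of RARα-KO held 16 distinct α CDR3 sequences with 9 V segments from 32 clonotypes, of which 14 had 42 bases. All ended in the same 26 bases, which the choice of TRAJ22 chains largely fixes, since the J segment encodes this end. Of the other α CDR3 sequences of gated RARα-KO cells 19 of 70 had 42 bases. The 5 found in the most gated cells are printed 5′ to 3′ as in the deposited contigs, with the shared 26 bases in capitals.
RARα-KO TRAV12D-1, 53 gated cells: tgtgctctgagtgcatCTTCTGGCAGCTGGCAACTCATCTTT
RARα-KO TRAV14N-3, 21 gated cells: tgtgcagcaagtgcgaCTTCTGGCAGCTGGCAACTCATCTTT
RARα-KO TRAV14N-3, 20 gated cells: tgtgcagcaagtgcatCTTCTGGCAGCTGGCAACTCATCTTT
RARα-KO TRAV14N-3, 13 gated cells: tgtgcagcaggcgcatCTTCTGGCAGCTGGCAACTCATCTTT
RARα-KO TRAV14N-3, 9 gated cells: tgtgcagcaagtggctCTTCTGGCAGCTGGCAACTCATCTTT

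The first of these sequences was found in 146 CD8 T cells of RARα-KO and in 0 of WT. It occurred in 6 clonotypes with 8 distinct β CDR3 sequences, so that the same α joint was paired with several β chains. The β CDR3 sequences of 3 of these clonotypes (clonotypes 4, 18 and 13, with 23, 13 and 10 gated cells) and of the 2 other large RARα-KO clones with TRAJ22 (clonotypes 3 and 1, with 33 and 21 gated cells) all used TRBV16 and are printed without marks to show their differences in the middle and in the J segment.
RARα-KO clonotype 4, TRBJ2-1: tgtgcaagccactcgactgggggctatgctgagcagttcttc
RARα-KO clonotype 18, TRBJ1-4: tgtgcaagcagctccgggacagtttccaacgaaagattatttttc
RARα-KO clonotype 13, TRBJ2-1: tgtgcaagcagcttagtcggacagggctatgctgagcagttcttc
RARα-KO clonotype 3, TRBJ1-4: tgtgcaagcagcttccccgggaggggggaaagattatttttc
RARα-KO clonotype 1, TRBJ1-3: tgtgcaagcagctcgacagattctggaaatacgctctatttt
The gated share of these clones ran from 21 of 119 CD8 T cells in clonotype 1 to 13 of 20 in clonotype 18.

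A second family of β chains was found mainly in WT and RARα-KO. It used TRBV16 with TRBJ2-7 and had CDR3 sequences of 42 bases within 4 base differences of WT clonotype 8. The family held 62 CD8 T cells of WT (24 gated), 88 of RARα-KO (22 gated) and 2 of RARα-TG (1 gated), with 5, 4 and 1 distinct sequences. Some of the sequences are printed with bases that differ from WT clonotype 8 in capitals.
WT clonotype 8: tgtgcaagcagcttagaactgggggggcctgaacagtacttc
RARα-KO clonotype 9: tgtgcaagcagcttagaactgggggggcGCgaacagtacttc
RARα-KO clonotype 57: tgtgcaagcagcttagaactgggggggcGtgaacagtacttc
The first was found in 21 gated of 53 WT cells, and the others in 8 of 49 and 2 of 8 cells. The 2 RARα-TG cells belonged to clonotype 25, which had the β sequence of clonotype 8 and held 15 WT CD8 T cells (3 gated), so that it was mostly a WT clone. In 11 RARα-KO cells of clonotype 4 the same β sequence was a further chain with a median of 3 UMIs, against 14 UMIs in WT, and the part of free RNA in it was not tested.

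The main α chain used TRAJ7 with all 5 WT and with 3 of the 4 RARα-KO β sequences. The α CDR3 of WT clonotype 8 used TRAV7D-2, and that of the RARα-TG cells of clonotype 25 is set beside it.
WT clonotype 8: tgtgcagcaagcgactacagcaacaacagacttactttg
clonotype 25, RARα-TG cells: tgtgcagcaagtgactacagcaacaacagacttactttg
The largest gated WT clone was of another kind. It was clonotype 5 with 30 of 62 cells gated, and it used TRBV31 with TRBJ1-6 and TRAV5-4 with TRAJ43.
WT clonotype 5: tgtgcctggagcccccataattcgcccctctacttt
The largest in RARα-TG, clonotype 176 with TRBV15, had 3 cells, all gated.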

How the data were processed

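The authors aligned the reads of the pooled 5′ library to mm10 and deposited UMI counts per gene, hashtag counts and TCR contigs. The submitters' notes and the study name Cell Ranger 6.1.0, while the file header names another major version. The deposited counts are raw and not normalized (32285 genes, 3 hashtags, 730308 barcodes, 46394322 gene UMIs). Barcodes with 500 or more gene UMIs (5600) held 96.5% of them. The labels name spleen and activated CD8 T cells; the tumor protocol in the same labels was followed. A genotype needed a top hashtag of 10 or more UMIs and 3 times the next, which takes out most doublets between genotypes, but not those within one.

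UMIs were summed over cells of a genotype and divided by all their gene UMIs (CPM; 1497801, 1838865 and 233368 UMIs in gated WT, RARα-KO and RARα-TG cells). Tested genes had 0.1 or more UMIs per cell in 1 genotype. A gene with few UMIs in the other genotypes could thus enter a list count only by being high in that genotype. Sums of 0 were replaced by 3 UMIs as a floor, and no ratio was given with both sums at 3 or fewer. With 1 sample per genotype no count model could be fitted. Scripts used Python 3.11.15, numpy 2.4.6, scipy 1.17.1 and pandas 2.3.3, and were tested on simulated counts.

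The members, the 31 gene lists, the tests and the alternatives were chosen with earlier results of these data known. Genes were named if they were gate genes, the 3 further markers or retinoid genes with 3 or more UMIs, if they were the 10 highest or 10 lowest of a genotype comparison (TCR segments and gate genes left out) or of gated against under-gate cells by their smallest ratio over the 3 genotypes, or if they were the 4 list genes with the most UMIs or list genes past 2-fold. The split by Tcf7 and Il7r, the removal of cells with 5 or more UMIs of other-type markers and the genes named for that split were chosen after seeing the data. Gene names are from the deposited feature table, coordinates from RefSeq (GRCm38.p6). Some genes and a sequence are not reported here, but the list counts and medians include these genes. RARα-TG sums are the smallest and their ratios the least certain.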

Additional observations from a re-analysis of the deposited data

Results flagged for a closer look

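For 7 genes of the lists, the log2 ratio of RARα-KO over WT had opposite signs in Tcf7-positive gated cells and in gated cells with Il7r alone, with both counting intervals leaving out 0. The difference between the kinds itself was not tested. Klf2 stood at -0.65 in Tcf7-positive and 0.93 in Il7r-alone cells, where 51 WT UMIs lay in 1 cell. Rora, a factor of type 17 and innate cells, stood at 0.58 and -1.19. Gpr183, a receptor that guides cells by oxysterols, stood at 0.58 and -0.79, the phosphatase gene Dusp2 at 0.52 and -0.39, and the kinase gene Lck at 0.31 and -0.20. Cd83 stood at -3.19 and 2.61 on 39 and 4 UMIs in Tcf7-positive cells and 3 and 24 in Il7r-alone cells of WT and RARα-KO. Cd74 stood at -1.02 and 2.86, with 256 RARα-KO UMIs in 1 cell.

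The TCRs of CD4 T cells enter no comparison above, and TRAJ22 was found there too. It was in 13.1% of RARα-KO CD4 T cells (29 of 221, 8.97% to 18.3%), above the 1.69% of WT (3 of 178, 0.349% to 4.85%), while RARα-TG had 4.48% (10 of 223). The part of doublets and free RNA in it was not tested.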

How the results depend on the processing

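Shares and ratios have no mouse replicate, gate genes at 1 or 2 UMIs per cell are near the detection limit, and RARα-TG rests on 46 cells. No paired analysis was possible because each genotype is 1 sample, for which reason no replicate could be left out. Of the main values, 545 under the alternatives stayed within the counting interval or 1.5 times the count. With each clonotype weighted equally no counts past 2-fold were made, since no interval exists. Scalings moved the median of all genes by under 0.1, so no shift is given. Except where a change in the genes counted is named, causes of the changes below were not tested.

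The gated share of WT, RARα-KO and RARα-TG was 47.5%, 46.9% and 62.4% with a gate of 1 UMI, 22.5%, 20.6% and 27.7% with 3, 21.2%, 20.9% and 32.3% thinned, and 44.9% (WT) and 40.3% (RARα-KO) with each clonotype counted once. Genes past 2-fold higher and lower in RARα-KO numbered 319 and 303 without a filter, 96 and 57 at 0.2 UMIs per cell, 52 and 32 thinned, and 226 lower with a gate of 3. RARα-TG had 164 higher at 0.2, and 94 and 62 thinned.

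RARα-KO medians became -0.68 for precursor genes without a filter, 0.43 for granules, 0.37 for NK-type and -0.23 for immediate early genes weighted by clonotype, -0.14 for NK-type genes without cells with other-type markers, 0.45 for heat shock without the largest clonotype and 0.62 for inhibitory receptors with a gate of 3. RARα-TG medians of Gzma, Cd7 and Cxcr3 were 1.06 thinned, 0.99 weighted, 1.13 without the largest clonotype and -0.082, reversed, with a gate of 3, and those of granules -0.47 thinned and -0.53 with a gate of 3. Gated cells with no other gated cell of their clonotype were 30.5% and 19.3% in WT and RARα-KO. Drawn to 46 cells they were 57.8% and 47.9%. TRBV16 and TRAJ22 of RARα-KO were 34.3% and 34.8% by clonotypes.

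Reversed in RARα-KO were Eomes (thinned, -0.0087), Ldlrad4 (weighted, 0.10), Fos (weighted -0.46, without the largest clonotype -0.50, gate of 3 -0.40), Col3a1 (-2.18 and -2.01 under the last 2), Dcn (-1.04 and -1.01), Gsn (-0.48 and -0.37) and the MC38 list (gate of 3, -0.37, and -0.45 in gated over under-gate cells). The median of the transcripts that also differ in myeloid cells was -3.22 when weighted, on 3 genes. Weighting gave no ratio for genes without WT UMIs, so Gm43305 and AA465934 dropped out of it. Without cells with other-type markers Fos stood at -1.09, Gsn at -0.086, Tyrobp at -2.07, Fcer1g at -2.09 and Cd74 at -2.08.

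Reversed in RARα-TG were Cxcr4 (thinned, -0.42), Smad3 (thinned, -0.0052), Il7r (weighted, 0.045), Klra7 (weighted -0.28, cells with 2 TRB chains left out -0.71), Gzma (gate of 3, -0.082), and, with the hashtag at 5 times the next, the dendritic list (-0.63), H2-Ab1 (-0.63), H2-Aa (-0.12) and Cd74 (-3.04). H2-Ab1 stood at -0.62 and Cd74 at -2.93 without other-type cells.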
